A study of Arabidopsis thaliana with 14 samples.

Results

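Binding sites of type-B ARABIDOPSIS RESPONSE REGULATORs (B-ARRs) that lay just beyond the 3′ end of genes were extracted. They came from 10 ChIP-seq peak lists of Arabidopsis thaliana seedlings. A peak was taken when its score, the −log10 p-value of the peak caller, was at least 16 and its summit lay 1 to 1000 bp downstream of the 3′ end of a protein-coding gene, outside all genes and more than 1000 bp from every transcription start site (TSS). In all, 3327 of 44261 peaks with a score of at least 16 met the rule, and they are called downstream peaks here. Some may still lie in promoters, which the study took to reach 1500 bp upstream of a TSS. The other peaks were 30587 TSS-proximal peaks (within 1000 bp of a TSS of any gene), 3781 in gene bodies and 6566 distal intergenic peaks. Beyond the minimum score, neither the rank of a peak, nor its presence in other lists, nor its sequence was used to choose it.

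Each list was the authors' combination of at least 2 biological replicates of one condition. In 9 lists a B-ARR gene with its own surrounding regulatory sequence and a C-terminal Ypet tag, a yellow fluorescent protein, was carried as an extra copy in Col-0 plants. The ARR1 line was sampled as 3-day-old etiolated (dark-grown) seedlings after mock treatment (ARR1_m_etiolated) and in long days after mock (ARR1_m), 4 h of 10 µM of the cytokinin 6-benzylaminopurine (ARR1_BA) or 72 h of it (ARR1_BA3d). ARR10 and ARR12 were sampled after mock (ARR10_m, ARR12_m) or 4 h of 10 µM 6-BA (ARR10_BA, ARR12_BA), and ARR14 after 72 h (ARR14_BA3d). The remaining list, ARR1dDDK_Dex, was taken as that of a truncated ARR1 without its receiver domain, fused to the glucocorticoid receptor, driven by the 35S promoter and released by 10 µM dexamethasone for 4 h. Its title and treatment give that identity, but its line label names the full-length tagged ARR1 line, so the identity of this list is not certain. The protocol describes mock solutions with DMSO, and whole seedlings were used throughout, so binding in a small group of cells is averaged with the rest.

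B-ARRs are the DNA-binding end of the cytokinin phosphorelay. Membrane histidine kinases sense the hormone, histidine phosphotransfer proteins (AHPs) carry the phosphate to the nucleus, and the phosphorylated B-ARRs bind short DNA elements with an AGAT core and activate genes, among them the type-A ARRs that dampen the same pathway. Most work on plant transcription factors reads binding upstream of a TSS. A site beyond the 3′ end of a gene can lie between the ends of 2 facing genes (a convergent pair) or between one gene and the start of the next (a tandem pair), so its position alone does not name the gene it acts on.

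The lists differed in size, from 73 peaks in ARR1_m to 9913 in ARR14_BA3d, and read depth was not given, so scores are compared within a list as percentiles (100 is the highest score) and between lists only side by side. No list had a replicate list of its own. The 2 ARR12 lists went against their labels when set beside the study's own columns of target genes: of 812 genes that could be read in its ARR12 mock column, 648 had a peak of the list labelled mock within 1500 bp and 811 had one of the list labelled 6-BA. The lists keep their labels here as "labelled ARR12_m" and "labelled ARR12_BA", no effect of 6-BA is drawn from them, and the tests are also given without them. Only 17 downstream peaks lay within 50 kb of ARR1, ARR10, ARR12 or ARR14, where reads from the extra gene copies map. Of these, 7 formed 1 site beside GATA17, a GATA factor gene, about 4 kb from ARR1.

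Windows of 101 bp centred on the highest summit are shown for 5 widely bound sites and for 3 sites beside ARR3, PYL13 and PYR1. These windows are examples, and the motif and hormone-gene counts below do not rest on them alone. The 5 are PHB2, the site found in 10 lists, and the 4 with the highest scores among 12 sites found in 9. They are plus-strand RefSeq sequence of assembly TAIR10.1, whose nuclear chromosomes have the TAIR10 lengths. Capitals mark AGATHY on either strand, the form of the B-ARR element that the study reported after cytokinin treatment. In it H stands for A, C or T and Y for C or T. Capitals also mark the G-box CACGTG, a palindrome read by bZIP and bHLH factors.
PHB2, chr1:979070-979170: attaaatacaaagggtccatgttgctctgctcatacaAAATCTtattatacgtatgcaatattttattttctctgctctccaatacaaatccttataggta
AT1G02210, chr1:426570-426670: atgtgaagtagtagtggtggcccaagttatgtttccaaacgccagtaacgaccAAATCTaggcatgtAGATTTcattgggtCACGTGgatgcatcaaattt
PP2CA, chr3:3582756-3582856: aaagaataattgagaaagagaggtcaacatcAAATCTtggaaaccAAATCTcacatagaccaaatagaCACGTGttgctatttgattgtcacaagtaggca
NAC049, chr3:1175216-1175316: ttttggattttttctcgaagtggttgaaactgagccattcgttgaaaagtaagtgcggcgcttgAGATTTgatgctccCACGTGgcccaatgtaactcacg
BBX21, chr1:28367804-28367904: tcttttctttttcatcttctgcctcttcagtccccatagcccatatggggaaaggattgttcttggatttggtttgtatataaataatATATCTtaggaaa
ARR3, chr1:22064623-22064723: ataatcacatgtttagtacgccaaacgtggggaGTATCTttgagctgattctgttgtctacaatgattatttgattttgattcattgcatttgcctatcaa
PYL13, chr4:10255719-10255819: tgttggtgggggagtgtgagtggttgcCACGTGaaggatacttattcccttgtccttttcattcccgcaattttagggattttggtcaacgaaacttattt
PYR1, chr4:9930257-9930357: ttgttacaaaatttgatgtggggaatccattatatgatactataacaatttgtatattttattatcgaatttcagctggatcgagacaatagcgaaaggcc
The windows beside AT1G02210, PP2CA and NAC049 held both elements within 101 bp, those of PHB2, BBX21 and ARR3 held AGATHY alone, the window of PYL13 held a G-box without AGATHY, and the window of PYR1 held neither.

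Downstream peaks made up more of most lists than the sequence open to them. The rule covers 5172810 nuclear positions, 4.34% of the genome, and the share of peaks there ran from 5.25% in ARR1dDDK_Dex (153 of 2916, 95% Wilson interval 4.50 to 6.12%) to 9.07% in ARR10_BA (536 of 5907, 8.37 to 9.83%). Between these lay 8.25% in ARR1_BA (378 of 4580), 7.97% in ARR10_m (331 of 4153), 7.65% in ARR1_BA3d (690 of 9025), 7.18% in the list labelled ARR12_m (387 of 5389), 7.15% in ARR14_BA3d (709 of 9913), 6.19% in the list labelled ARR12_BA (49 of 792) and 6.08% in ARR1_m_etiolated (92 of 1513). ARR1_m had 2 downstream peaks of 73 and, with fewer than 10, entered no test. The intervals cover counting error only.

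**Figure D1:**
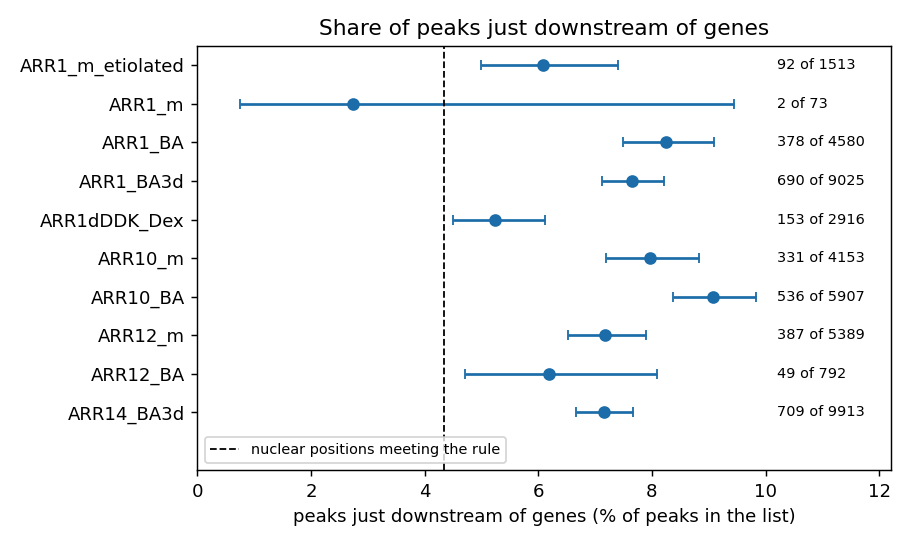
Downstream peaks as a percentage of all peaks with a score of at least 16 in each of the 10 lists (points) with 95% Wilson intervals (bars), and the share of nuclear positions meeting the rule (dashed line, 4.34%). All lists but ARR1_m lie above the line, from 5.25% to 9.07%.

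In the 9 lists tested the share was above that of positions in all 9, by 0.71 ± 0.25 on the log2 scale (mean ± SD over lists; exact two-sided sign-flip permutation test over lists, p = 0.00391, the smallest that 9 lists can give; adjusted p = 0.0273 over the 7 tests made here). Without the 2 ARR12 lists the mean was 0.74, and the adjusted p became 0.0547 because 7 lists cannot give a p below 0.0156. The lists share their input control and many sites, so they are not independent. TSS-proximal peaks were 1.16 to 1.47 times as frequent as positions within 1000 bp of a TSS in these 9 lists, and distal intergenic peaks 1.0 to 2.04 times. Downstream peaks were 1.21 to 2.09 times as frequent. Their ratio was above that of TSS-proximal peaks in 7 lists and below it in ARR1dDDK_Dex (1.21 against 1.47) and, by a small margin, in ARR1_m_etiolated (1.40 against 1.41). Gene bodies were the depleted place in all 9, at 0.17 to 0.32 times their share of positions. How many of the positions can be mapped by unique reads was not measured.

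The highest downstream peaks stood near the top of their lists. A site beside AT1G02210, a short gene annotated as a NAC-domain protein, was among the 3 highest downstream peaks in 7 lists. Its score was 29.65 in the list labelled ARR12_BA, 100.3 at the median of 9 lists and 276.08 in ARR14_BA3d. It stood at or above percentile 92.9 in every one of these lists. In ARR1_BA it ranked 7th of 4580 peaks and in ARR14_BA3d 12th of 9913. Its summit at position 426620 of chromosome 1 lay 928 bp beyond the annotated end of the gene (427548 to 427811, minus strand), and that end is marked as partial in the annotation.

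The site beside PHB2, which encodes a mitochondrial prohibitin, was the one downstream site found in all 10 lists. Its score was lowest in ARR1_m at 16.38, had a median of 89.9 and was highest in ARR14_BA3d at 145.01. Outside ARR1_m, where it lay at percentile 8.22, it remained in the upper part of the lists, with a median percentile of 97.9 over all 10. The summit at position 979120 of chromosome 1 lay 187 bp beyond PHB2 (979307 to 982002, minus strand) and 1209 bp from the TSS of GRXS13, a glutaredoxin gene in tandem with it.

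Of the 12 sites found in 9 lists, the 9 with the highest scores are described here, and the other 3, beside AT3G14060, MYB74 and AGO6, had highest scores of 75.9, 58.41 and 54.41. They lay beside genes of transcription factors and hormone signalling as well as metabolism. At PP2CA, a protein phosphatase that restrains abscisic acid signalling, the peak lay 976 bp beyond the gene. Its score was 9.21 in ARR1_m, below the minimum, 58.8 at the median of 10 lists and 255.42 in ARR14_BA3d. Only the list labelled ARR12_BA placed it low, at percentile 14.2.

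Between the facing ends of the NAC factor genes NAC048 and NAC049 a peak was found in 9 lists. Its score was lowest in the list labelled ARR12_BA at 31.33, had a median of 78.0 and was highest in ARR14_BA3d at 219.81. It stayed at or above percentile 91.6 in each of these lists. The 3′ end of NAC049, like that of AT1G02210, is marked as partial.

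Beside BBX21, a B-box protein that promotes light-grown development, the score was 8.16 in ARR1_m, 73.7 at the median and 208.96 in ARR14_BA3d. The summit lay 116 bp beyond BBX21, which faces AT1G75550 across a gap of 708 bp. All 9 lists that held it above the minimum placed it at or above percentile 73.2.

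LBD38, a LOB-domain repressor of nitrogen-responsive and anthocyanin genes, had a peak 280 bp beyond its end in 9 lists. Its score was lowest in the list labelled ARR12_BA at 24.79, with a median of 51.1 and a highest value of 194.0 in ARR14_BA3d. In ARR1dDDK_Dex, whose lowest score was 31.21, it stood at percentile 5.57, while ARR10_BA placed it at 99.2.

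The remaining 4 of the sites described lay beside JAL33 (a jacalin-related lectin), AT2G28360 (a phosphatase-associated protein), AT3G57010 (a phosphotriesterase family protein) and AT1G53903. Their highest scores were 185.58, 184.53, 148.95 and 124.51. Each was a downstream peak in 9 lists, and the first 3 also had a peak below the minimum in ARR1_m. ARR1_m therefore carried a peak below the minimum at 5 of these 10 sites.

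**Figure D2:**
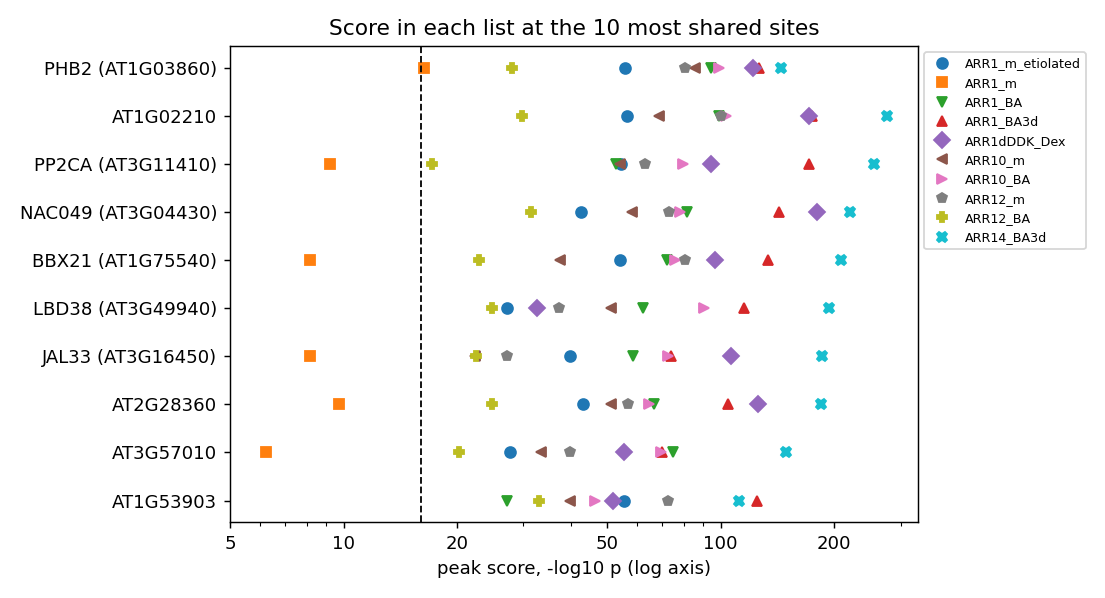
Peak score (−log10 p, log axis) in each list at the 10 sites that were downstream peaks in the most lists (ties at 9 lists ordered by highest score), one row per site named by the nearest 3′ end, one symbol per list; the dashed line is the minimum of 16. The ARR14_BA3d symbol is the highest at 9 of the 10 sites, and ARR1_m has the lowest score wherever it has a peak.

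Other sites ranked among the 3 highest downstream peaks of single lists. A site between AT3G60310 (an acyl-CoA synthetase family gene) and AT3G60320 had the highest score of all downstream peaks, 278.4 in ARR14_BA3d, and 211.48 in ARR1_BA3d, but 24.73 in ARR1_m_etiolated. The highest downstream peak of ARR1dDDK_Dex, 523 bp beyond AT5G13340 with a score of 220.03, had no summit within 200 bp of it in ARR14_BA3d, ARR10_m or ARR1_m. SMT2, a sterol methyltransferase, and AT1G21050, of unknown function, had scores of 196.17 and 200.03 in ARR1_BA3d. In ARR14_BA3d they scored 268.59 and 270.31. RAP2.4, an ERF-family factor, scored 91.79 in ARR1_BA and had its highest score, 235.24, in ARR14_BA3d. AGK2, a guanylate kinase facing NAGK, scored 98.03 in the list labelled ARR12_m and had its highest score, 258.87, in ARR14_BA3d.

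AT3G54730, annotated as a transcription repressor, scored 277.24 in ARR14_BA3d. The second downstream peak of ARR1_m lay beside PFK4, a phosphofructokinase, with a score of 16.38. That site reached 84.71 in the list labelled ARR12_m, in a peak 4174 bp wide with its summit 1 bp beyond PFK4. The gap to the facing gene AT5G61590 is only 87 bp, so the peak cannot be assigned to one of them. The list labelled ARR12_BA was led by 2 sites near each other on chromosome 1, beside AT1G53887 and AT1G53903, at 33.9 and 33.04. The GATA17 site was the highest downstream peak of ARR1_m_etiolated (96.38, in a peak 10170 bp wide) and of ARR10_m (89.09, 7330 bp wide). In other lists without a tagged ARR1 locus it was 81.02 at percentile 98.2 in ARR10_BA, 63.13 at percentile 96.0 in the list labelled ARR12_m, where the summit missed the rule, and 168.15 at percentile 91.2 in ARR14_BA3d. ARR1dDDK_Dex had it at 39.44 and percentile 29.4, and the list labelled ARR12_BA had no peak there.

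As a group, downstream peaks ranked near the middle of their lists. Their median percentile was 44.6 in the list labelled ARR12_BA, 47.7 in ARR1dDDK_Dex, 51.0 in ARR10_m, 51.8 in ARR1_m_etiolated, 52.6 in ARR10_BA, 53.7 in ARR14_BA3d, 53.8 in ARR1_BA, 55.0 in the list labelled ARR12_m and 55.1 in ARR1_BA3d. The medians of TSS-proximal peaks in these lists lay between 47.5 and 50.03. The difference was 2.86 ± 3.88 percentile points (mean ± SD, 9 lists), with downstream peaks higher in 7 lists, and did not pass the test (adjusted p = 0.0820, exact sign-flip permutation test). Against gene-body peaks it was 1.15 ± 5.50 points (adjusted p = 0.555), and against distal intergenic peaks −2.37 ± 4.48 points (adjusted p = 0.210), in the same exact test. The difference from TSS-proximal peaks passed when every deposited peak was used (4.72 points, adjusted p = 0.00911), when only protein-coding genes and their TSSs were counted (4.01 points, adjusted p = 0.0137), and when the list labelled ARR12_BA was left out (3.71 points, adjusted p = 0.0365), by the exact test in each case.

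**Figure D3:**
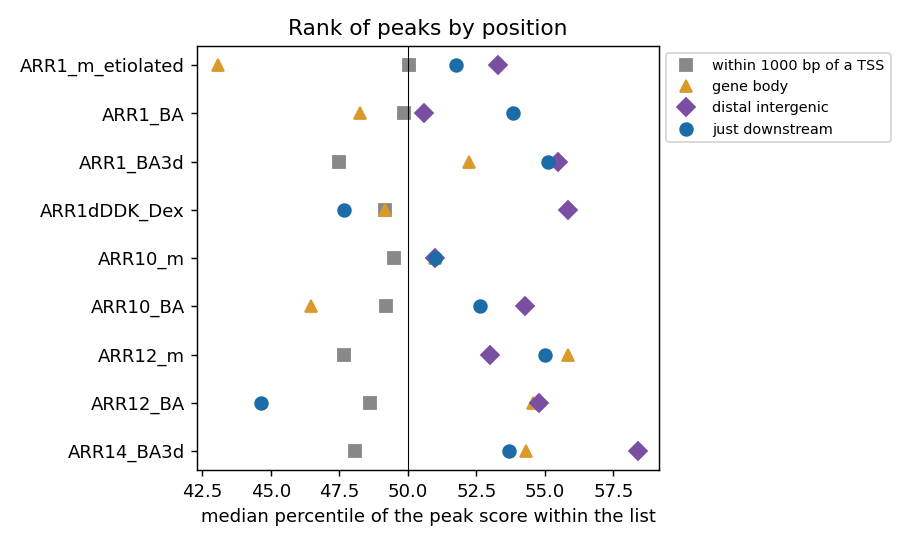
Median percentile of the peak score within each of the 9 lists with at least 10 downstream peaks, by position of the summit (symbols); the vertical line marks percentile 50. Downstream peaks lie to the right of TSS-proximal peaks in 7 lists and to the left in ARR1dDDK_Dex and the list labelled ARR12_BA.

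At either end of the score range the share of downstream peaks was uneven between lists. In ARR1_m_etiolated 14 of the 151 highest peaks, the top 10% of the list, were downstream peaks (9.27%), and 2.65% of the bottom 10% were. In ARR1_BA3d the shares were 10.8% and 5.99%, and in ARR14_BA3d 10.8% and 6.96%. ARR10_m had 7.71% and 5.30%, ARR10_BA had 11.2% and 9.98%, and ARR1dDDK_Dex had 4.79% and 4.45%. In the list labelled ARR12_m they were 8.16% and 5.20%. The lowest peaks had the higher share in ARR1_BA (7.42% and 8.08%) and in the list labelled ARR12_BA (6.33% and 10.1%). At the minimum of 16, the lowest downstream peak inside scored 16 in ARR1_BA and the highest one outside 15.75, and the peaks nearest the distance limit lay at 1000 bp inside and 1002 bp outside. ARR1_m_etiolated, ARR1dDDK_Dex and ARR14_BA3d held no downstream peak below the minimum, since their lowest scores were 20.6, 31.21 and 28.27.

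Most downstream peaks recurred in another list. In ARR1_m_etiolated all 92 overlapped a peak of another list with a score of at least 16, beside 98.2% of all peaks of that list, and in ARR1dDDK_Dex all 153, beside 98.1%. In ARR1_BA 376 of 378 did (all peaks, 99.2%), and in ARR10_m 329 of 331 (all peaks, 99.1%). The 2 downstream peaks of ARR1_m were shared as well, like all 73 of its peaks (100%). The list labelled ARR12_BA shared 48 of 49 (all peaks, 88.5%), and the list labelled ARR12_m 370 of 387 (all peaks, 94.7%). These shares are read against the background of each list, and apart from the list labelled ARR12_BA they were within a few points of it. In that list 96.37% of TSS-proximal and 98.55% of gene-body peaks were shared, but only 65.05% of distal intergenic peaks.

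In the large lists more peaks were unshared. ARR1_BA3d shared 642 of 690 downstream peaks (93.0%, all peaks 92.1%), ARR10_BA 495 of 536 (92.4%, all peaks 93.4%) and ARR14_BA3d 581 of 709 (81.9%, all peaks 78.4%). Against TSS-proximal peaks the difference was 1.34 ± 1.74 percentage points (mean ± SD, 9 lists), with downstream peaks higher in 8 lists and lower in ARR10_BA, and did not pass the exact sign-flip permutation test (adjusted p = 0.0752). It turned to −1.79 points when a reciprocal overlap of 50% was required and to −0.16 points without peaks wider than 2000 bp (20.6% of downstream peaks), so its direction depends on how overlap is counted. Without ARR10_BA it was 1.71 points and passed (adjusted p = 0.0273, exact test).

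Joined within 200 bp, the 3327 downstream peaks formed 1248 sites. Of these, 514 (41.2%) were downstream peaks in 1 list, 251 in 2, 131 in 3 and 352 in 4 or more, among them 151 in 6 or more and 12 in 9. The summits of a site found in several lists spread over a median of 60 bp. Counting any peak with its summit at the site, 448 sites belonged to 1 list at the minimum of 16, and 249 when every deposited peak was counted. The best percentile reached by a site had a median of 28.5 for those in 1 list, 59.8 in 2 or 3 and 88.2 in 4 or more. This value is a maximum over the lists that hold the site. It therefore tends to rise with their number by construction, and no difference in strength is read from it.

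Not every list placed its summit inside the rule. Beside the 3327 downstream peaks, from which the sites were built, the lists had 276 peaks of sufficient score at these sites whose summit lay in a gene body (123), within 1000 bp of a TSS (82) or in distal intergenic sequence (71). The peaks themselves were broad, with a median width of 1124 bp. As a result, 71.9% of the downstream peaks reached into an annotated gene and 12.9% covered a TSS, though their summits did neither.

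Sharing between particular lists was asymmetric, following their sizes. After 4 h of 6-BA, ARR10 had 536 downstream peaks against 331 after mock. Of the mock peaks, 92.8% overlapped a peak of ARR10_BA, and 59.3% of the ARR10_BA peaks overlapped one of ARR10_m. The corresponding shares for TSS-proximal peaks were 88.0% and 64.2%.

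For ARR1, 2 downstream peaks in mock stood beside 378 after 4 h and 690 after 72 h of 6-BA. At any deposited score the numbers were 152, 614 and 806, so 150 downstream peaks of the mock list lay below the minimum. The study's cutoff corresponds to a score of 16, yet it counted far more ARR1 mock target genes than the 73 peaks kept here can give. The minimum may therefore not match the study's for ARR1_m, and its 2 peaks are not read as near absence of binding. Of the downstream peaks at 4 h, 90.2% overlapped a peak at 72 h, and in the reverse direction 50% did. The corresponding shares for TSS-proximal peaks were 91.3% and 43.7%. The etiolated mock list, with 92, had 90.2% of them overlapped in ARR1_BA and 94.6% in ARR1_BA3d. It overlapped 24.9% of those of ARR1_BA. For TSS-proximal peaks these shares were, in the same order, 85.4%, 91.2% and 28.6%. Since no condition has a second list, these differences carry no test, and read depth cannot be told apart from treatment.

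ARR14 and ARR1 could be set side by side at 72 h of 6-BA. Of the ARR1_BA3d downstream peaks 82.5% overlapped a peak of ARR14_BA3d (TSS-proximal peaks, 81.1%). Of the ARR14_BA3d downstream peaks 76.7% overlapped one of ARR1_BA3d (TSS-proximal peaks, 71.9%). The ARR1dDDK_Dex list shared 94.1% of its downstream peaks with ARR14_BA3d, 96.7% with ARR1_BA3d and 36.6% with ARR1_m_etiolated. Its TSS-proximal peaks gave 93.4%, 88.9% and 30.5%. Its downstream peaks overlapped ARR10_BA more often (88.2%) than its TSS-proximal peaks did (68.1%), a difference that was not tested.

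The sites lay closer to the gene than the available sequence. The median distance from the summit to the nearest 3′ end was 325 bp for the 1248 sites and 394 bp for all positions meeting the rule. Between 101 and 200 bp lay 227 sites, 18.2% against 12.9% of positions, the highest ratio of any 100-bp step (1.41). From 401 to 900 bp the ratio was between 0.79 and 0.89, and in the last step, 901 to 1000 bp, it was 0.99.

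**Figure D4:**
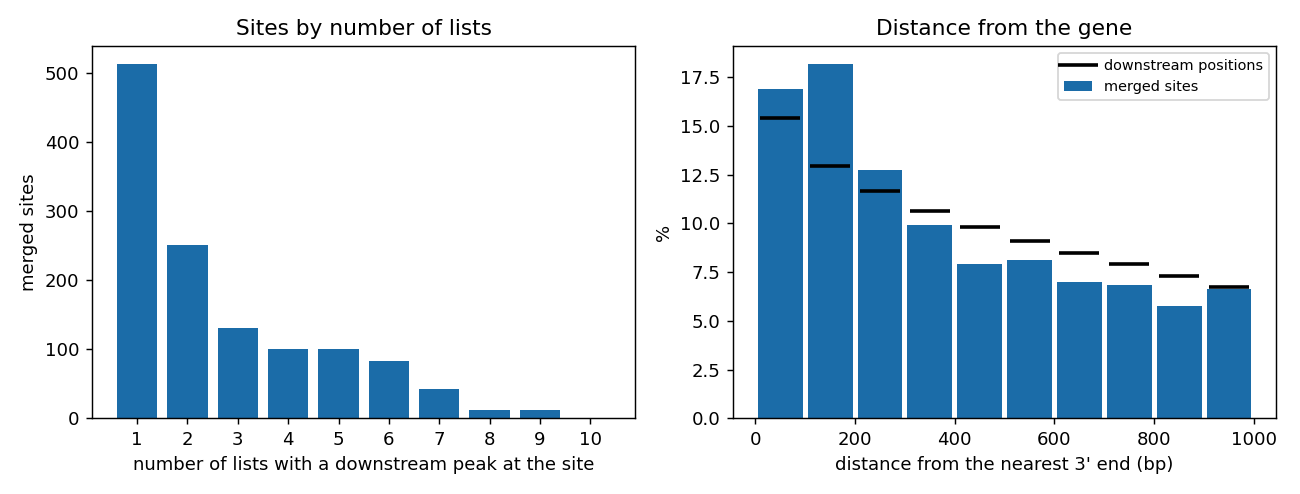
Left, number of merged downstream sites by the number of lists in which they were downstream peaks, from 514 in 1 list to 1 in 10. Right, percentage of the 1248 sites (bars) and of all positions meeting the rule (black marks) in 100-bp steps from the nearest 3′ end; the bar exceeds the mark most between 101 and 200 bp.

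The arrangement of the neighbouring genes differed little from that of the available sequence. Convergent pairs flanked 543 sites (43.5%) and 42.8% of positions, and tandem pairs 705 sites (56.5%) and 57.1% of positions. Sites between convergent genes lay in gaps with a median of 1557 bp, shorter than the 2424 bp of tandem gaps. Positions meeting the rule had 1639 bp and 2538 bp, and the rule itself admits only tandem gaps longer than 1000 bp. Among sites in 1 list 43.6% were convergent, in 2 or 3 lists 38.2% and in 4 or more 49.2%, without a steady trend.

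The nearest TSS was at a median of 1950 bp (1795 bp for positions). Within 1001 to 1250 bp of a TSS lay 16.2% of sites and 18.6% of positions, and at 2001 to 3000 bp 34.6% and 28.3%, so the sites were not crowded against the TSS limit. The gene with the nearest 3′ end also owned the nearest TSS at 45.6% of sites (49.7% of positions). Genes whose 3′ end is marked as partial were nearest to 5.45% of sites and 17.3% of positions, and leaving them out gave a downstream share of 0.90 above positions on the log2 scale (adjusted p = 0.0273, exact sign-flip test; an alternative chosen after seeing the data).

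The B-ARR element was more frequent at the summits than in the sequence beside them. AGATHY, searched on both strands in the 200 bp around the summit, was found in 82.4% of downstream peaks of ARR1dDDK_Dex (126 of 153; 83.5% of all peaks), 79.7% in ARR14_BA3d (565 of 709; 82.2%) and 73.9% in ARR1_m_etiolated (68 of 92; 71.4%). In the flanking windows 500 bp to each side the shares were 58.8%, 56.0% and 59.8%. All positions meeting the rule had 58.9%.

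The other lists stood lower. ARR10_BA had the element in 72.0% (all peaks 71.8%, flanks 57.5%), the list labelled ARR12_BA in 71.4% (71.0%, flanks 68.4%), ARR1_BA3d in 67.2% (66.8%, flanks 56.3%), ARR1_BA in 66.7% (68.2%, flanks 56.5%) and ARR10_m in 62.8% (64.7%, flanks 57.7%). In the list labelled ARR12_m it was found in 55.0% (60.5%, flanks 56.6%), below its flanks. ARR1_m had it in 1 of 2 (58.9%).

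The summit exceeded the flanks by 11.5 ± 8.6 percentage points (mean ± SD, 9 lists), in 8 of 9 lists, and passed the exact sign-flip permutation test (adjusted p = 0.0273). Without the 2 ARR12 lists the difference was 14.6 points, in a design of 7 lists whose adjusted p was 0.0547. With the shorter sequence AGAT, the core named by the study, the difference was 2.22 points and did not pass (adjusted p = 0.252, exact test). AGAT occurs in 88.1% of all windows. Against TSS-proximal peaks downstream peaks had AGATHY less often by 1.84 ± 2.42 points, in 7 of 9 lists (adjusted p = 0.0752, exact test). This difference became 0.77 points in the other direction when the reach was 500 bp.

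The G-box was also more frequent at the summits than beside them. It was searched after CACGTG had been seen in the printed windows, so its values are a description and no test was made. A G-box lay in the summit window of 158 of 1248 sites (12.7%), in 2.08% of their flanking windows (a difference of 10.6 points, beside 12.5 points for AGATHY at the same sites) and in 2.32% of the windows at all positions meeting the rule. Its share was 8.75% among sites in 1 list, 13.1% in 2 or 3 and 17.9% in 4 or more. Both elements were present at 100 of the 158 sites. Among all 1248 sites AGATHY was present at 864 (69.2%), so no joint occurrence beyond that share is read from the count.

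Every list with at least 10 downstream peaks showed the G-box more often at the summit than in the flanks. The share was 13.7% in ARR14_BA3d (flanks 1.90%), 14.2% in ARR10_BA (2.80%) and in the list labelled ARR12_m (2.20%), 16.6% in ARR10_m (2.72%) and 17.2% in ARR1_BA3d (2.17%). It was 17.7% in ARR1_BA (2.51%), 18.9% in ARR1dDDK_Dex (3.59%), 20.4% in the list labelled ARR12_BA (3.06%) and 26.1% in ARR1_m_etiolated (4.89%). TSS-proximal peaks of the same lists had it in 13 to 24.4%, a higher share than downstream peaks in 7 of the 9 lists and a lower one in ARR1_m_etiolated and the list labelled ARR12_BA. The etiolated list, the one from dark-grown seedlings, had the highest share among downstream peaks, 24 of 92, and 17.4% of its TSS-proximal peaks.

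**Figure D5:**
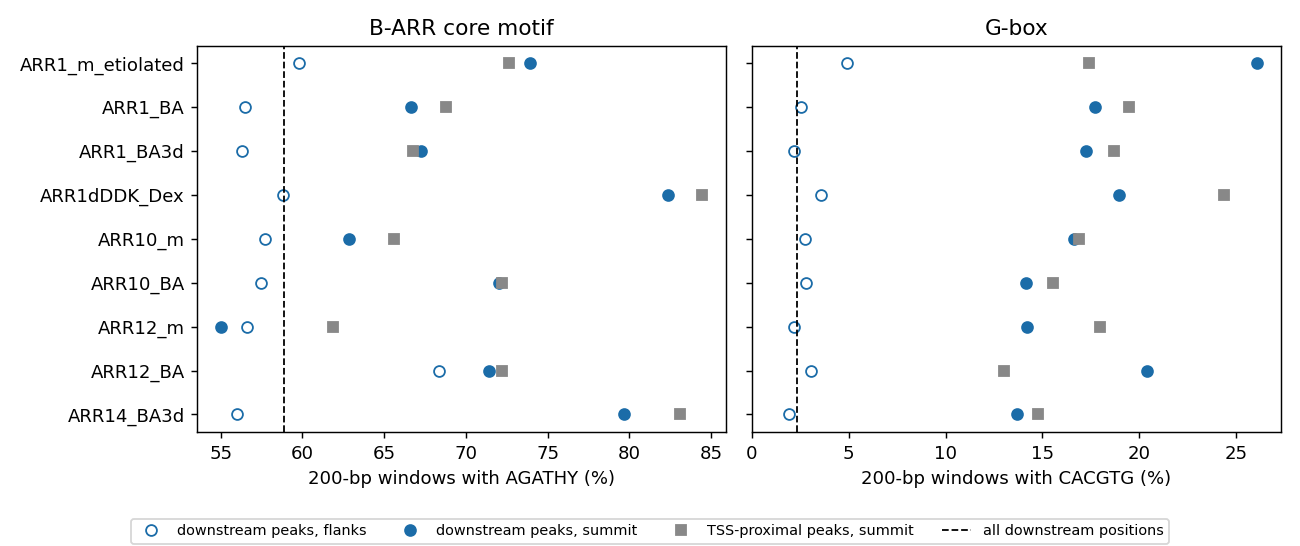
Percentage of 200-bp windows holding AGATHY (left; the axis does not start at 0) or the G-box CACGTG (right) at the summits of downstream peaks (filled circles), 500 bp to each side of them (open circles) and at the summits of TSS-proximal peaks (squares), for the 9 lists tested; dashed lines give all positions meeting the rule, 58.9% and 2.32%. Filled circles lie right of open circles in every row on the right and in 8 of 9 rows on the left.

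Base composition differed between the sites and the sequence open to them. The median GC content of the 200-bp window was 34.0% at the sites and 30.5% at all positions meeting the rule, and among these 9 lists it ran from 33.5% to 37.5% for downstream peaks and from 35.0% to 40.5% for TSS-proximal peaks. The part of base composition in the motif shares was not tested. AGATHY was present at 64.6% of sites in 1 list, 72.8% in 2 or 3 and 72.2% in 4 or more.

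The genes bound at their 3′ side numbered 1381, or 12.7% of the 10863 protein-coding genes that have any position meeting the rule (27444 protein-coding genes in all). Of these, 868 were bound in at least 2 lists and 320 in at least 5. Since 17.2% of downstream peaks lay within 1000 bp of more than one 3′ end, a peak between convergent genes was counted for both.

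Genes bound downstream also had a peak near their own TSS more often than all eligible genes, in each of the 9 lists. In ARR14_BA3d 36.2% of 834 such genes did (all eligible genes, 26.2%), and in ARR1_BA3d 32.5% of 830 (23.1%). In ARR10_BA it was 24.1% of 619 (14.4%), in ARR1_BA 20.8% of 448 (11.3%) and in ARR1_m_etiolated 19.4% of 98 (4.22%). The list labelled ARR12_BA had 5 of 54 (1.69% of all eligible genes). Neither the length of the free sequence around a gene nor the width of peaks was held constant here, and no test was made. Over all lists, 656 of the 1381 genes (47.5%) had no peak near their TSS in any list, beside 63.7% of all eligible genes.

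Genes of hormone and light pathways were read from 13 lists of 302 symbols, of which 295 matched a gene and 168 had a position meeting the rule. Downstream peaks lay beside 46 of the 168 (27.4%; 12.7% of all eligible genes). Auxin genes had 15 of 50, gibberellin genes 8 of 19, abscisic acid genes 6 of 18 and ethylene genes 4 of 12. Light and clock genes had 4 of 13, jasmonate genes 3 of 7, brassinosteroid genes 1 of 4 (BRL1) and shoot meristem genes 2 of 13. The 5 lists of the cytokinin pathway itself had 3 of 32 (9.38%), near the background: 1 of 4 type-A ARR genes (ARR3), 1 of 8 type-B ARR genes (ARR20), AHP5 of 2 genes of perception and transfer, none of 14 genes of cytokinin metabolism and none of 4 cytokinin response factor genes. The gene lists were chosen with earlier results of these data known, and the length of free sequence around a gene was not held constant. With so few genes in each list the counts are given as they stand, and no test was made.

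PYR1 and GID1B had downstream peaks in the most lists of the pathway genes, 7 each. PYR1, an abscisic acid receptor, had a downstream peak 432 bp beyond its end in 7 lists. The score was 10.14 in the list labelled ARR12_BA, 56.9 at the median of 8 lists and 86.32 in ARR14_BA3d. No list had a peak of at least 16 within 1000 bp of its TSS.

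GID1B, a gibberellin receptor, was bound downstream at 2 sites, in 6 lists and in 1 other. The site 504 bp beyond the gene scored 32.2 in ARR1_m_etiolated, 41.6 at the median of 6 lists and 153.91 in ARR14_BA3d, and the site at 912 bp scored 39.85 in the list labelled ARR12_m. In 4 lists GID1B also had a peak near its TSS. PYL13, of the same family as PYR1, had downstream peaks in 5 lists, up to 101.94 in ARR14_BA3d. The summit lay 1008 bp from the TSS of its neighbour AT4G18630, just past the TSS limit. It was 916 bp beyond the annotated 3′ end of PYL13, which is marked as partial.

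Among auxin genes, GH3.5, which conjugates auxin to amino acids, had a peak 216 bp beyond its end in 6 lists. Its score was 10.74 in the list labelled ARR12_BA, 39.0 at the median of 7 lists and 207.88 in ARR14_BA3d. YUC6, an auxin biosynthesis enzyme, had one at 190 bp in 4 lists, from 17.28 in ARR10_BA to 147.96 in ARR14_BA3d. ARF6, an auxin response factor, had 2 sites, with a highest score of 134.34 at the one 108 bp beyond its end.

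ARF6 and PIF4 differed from GH3.5, YUC6 and PYR1 in what lay at their other end. ARF6 had a TSS-proximal peak in 8 lists and PIF4, a bHLH factor of light and temperature growth responses, in 7, whereas the other 3 had none in any list. GH3.5 did carry a peak in 7 lists just past that limit, 1051 to 1119 bp upstream of its TSS, with scores of 24.96 to 84.63. PIF4 was bound 373 bp beyond its end in 4 lists, at 18.19 in ARR1_BA, 64.96 in ARR1_BA3d, 25.52 in ARR10_BA and 113.68 in ARR14_BA3d. A peak of 15.0 in ARR10_m fell below the minimum. JAZ9, a repressor of jasmonate responses, had a peak 152 bp beyond its end in 6 lists, from 21.16 in ARR10_m to 198.24 in ARR14_BA3d.

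In the cytokinin pathway the type-A gene ARR3 had a downstream peak in 5 lists, 944 bp beyond its end and 2560 bp from the nearest TSS. Its score was 20.6 in ARR1_m_etiolated, 39.83 in ARR1_BA, 33.53 in ARR1_BA3d, 61.19 in ARR10_BA and 192.94 in ARR14_BA3d, and 5.31 in ARR1_m. No summit lay within 200 bp of it at any score in ARR10_m, the 2 ARR12 lists or ARR1dDDK_Dex, but ARR1dDDK_Dex and the list labelled ARR12_m had a peak inside ARR3, at 50.94 and 27.2. The score of ARR14_BA3d stood at percentile 94.5 of its list and that of ARR1_m_etiolated at 0.96. ARR3 had no peak of at least 16 within 1000 bp of its TSS in any list.

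ARR20, a type-B ARR gene, shared its site with the convergent gene GATL7, so the peak cannot be assigned to one of them. It was found in 6 lists, with scores from 18.26 in ARR10_m to 44.27 in ARR1dDDK_Dex and a best percentile of 57.0. AHP5, a phosphotransfer protein of the cytokinin relay, had a downstream peak in 3 lists, up to 95.77. Its percentile there did not exceed 71.9, and 4 lists held a peak near its TSS.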

How the data were processed

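The authors aligned single-end reads with Bowtie (0.12.7 in the submitters' processing notes), keeping unique reads, called peaks against input with MACS2 (2.0.10) and combined at least 2 replicates by the irreproducible discovery rate. The deposited lists give, per peak, a −log10 p-value (used as the score), a fold enrichment over input (a ratio, not used in tests), an integer score (10 times the former, not used) and the summit offset. The build is TAIR10. The 66592 deposited peaks on nuclear chromosomes were read, and 1 chloroplast peak was left out. Genes came from RefSeq TAIR10.1 (37899 nuclear genes and pseudogenes, 27444 protein-coding), whose gene ends may differ from those of the authors' annotation.

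Each summit was put in 1 class in the order TSS-proximal, gene body, downstream, distal intergenic. Tests were exact two-sided sign-flip permutations over the 9 lists with at least 10 downstream peaks, with Benjamini-Hochberg adjustment over 7 tests and a threshold of 0.05. Sharing meant an overlap of 1 bp or more. The scripts were tested on simulated data. Named were the genes at the 3 highest downstream peaks of each list, the 10 most widely found sites (ties by highest score), and at most 10 genes of the 13 pathway lists by number of lists. AHP5 was added to complete the cytokinin genes. The members and lists were chosen with earlier results of these data known. Input, IgG and RNA samples were not analysed here. Computation used pandas 2.3.3 and NumPy 2.4.6 under Python 3.11.15, and Matplotlib 3.10.9 drew the figures.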

Additional observations from a re-analysis of the deposited data

How the results depend on the processing

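No paired analysis was possible because the labels give no replicate numbers and the replicates had been combined before deposit. The downstream share and the motif difference between summit and flanks kept their direction under all alternatives; their adjusted p rose above 0.05 in most settings with fewer lists, where the smallest possible p is higher, and for the motif also with AGAT. Leaving out each list in turn gave shares of 0.67 to 0.77 (log2) and motif differences of 10.0 to 13.2 points (adjusted p up to 0.0547), rank differences of 2.26 to 3.71, 0.22 to 2.54 and −3.07 to −1.40 points against TSS-proximal, gene-body and distal intergenic peaks, sharing differences of 0.91 to 1.71, motif differences from TSS-proximal peaks of −2.22 to −1.21, 1052 to 1248 sites and 1171 to 1381 genes. Without the ARR12 lists the share was 0.74 and the motif difference 14.6 points, and as means per tagged protein 0.67 and 13.9 points, where 5 values cannot give a p below 0.0625; with AGAT the motif difference was 2.22 points.

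Some differences that had not passed did so elsewhere. With every deposited peak they were rank against TSS-proximal (4.72 points), gene-body (5.18) and distal intergenic peaks (−2.31) and sharing (2.19). With protein-coding genes only they were rank against TSS-proximal peaks (4.01) and the motif difference from them (−2.91), which also passed at a minimum of 30 (−2.57), a reach of 1500 bp (−1.98) and a 400-bp window (−2.21). Sharing passed at a reach of 1500 bp (1.54), at a TSS distance of 1500 bp (1.34) and without ARR10_BA (1.71, adjusted p = 0.0273, exact test), and rank against TSS-proximal peaks without the list labelled ARR12_BA (3.71). Signs turned for the motif difference from TSS-proximal peaks at a reach of 500 bp (0.77), for rank against distal intergenic peaks in the top 1000 peaks of each list (0.065), and for sharing without peaks wider than 2000 bp (−0.16) and with a reciprocal overlap of 50% (−1.79). The top 1000 peaks gave 308 sites and 345 genes. The causes were not tested.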
